A study of Mus musculus with 18 samples.

Results

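The genes described here are the Fc gamma receptors of the mouse and the chains through which such receptors signal: the activating receptors Fcgr1, Fcgr3 and Fcgr4, the inhibitory receptor Fcgr2b, and the adaptor chains Fcer1g and Tyrobp. They were chosen by name, 6 of the 46983 genes in the tables, and each has a value in all 18 libraries; Fcgr1 and Fcgr3 were at 0 reads in 1 library. RNA was sequenced from cells sorted out of subcutaneous MC38 tumours; MC38 is a colon carcinoma line of the mouse, injected here into C57BL/6 females aged 6 weeks. One group of mice received an antibody against PD-1 (200 µg per mouse, 2 times a week) plus D18, an agent known here by its code name only (25 µg per mouse, 1 time a week), and the other received the antibody alone. These groups are called D18 and anti-PD-1 below. Tumours averaged 100 mm3 at the start, and treatment lasted 2 weeks. The sorts were of dendritic cells, CD4+ T helper cells and CD8+ T cells (the dendritic cell, CD4+ and CD8+ sorts below), with 3 Smart-Seq2 libraries per group and sort, 18 in all. All of these mice had PD-1 blockade, so the comparison is of D18 added to the antibody. Mice were pooled before being divided into groups, and separate mice per replicate are stated nowhere in the labels, so a p-value here measures only how these libraries vary, which may be technical.

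Fc gamma receptors bind the constant part of IgG antibodies on the surface of myeloid cells. Mouse Fcgr1, Fcgr3 and Fcgr4 bind antibody outside the cell and signal through a shared partner, the FcR gamma chain encoded by Fcer1g, whose tail carries an immunoreceptor tyrosine-based activation motif (ITAM). Fcgr2b needs no partner: its own tail carries an immunoreceptor tyrosine-based inhibition motif (ITIM), which recruits phosphatases and dampens the activating signal, so that the balance of inhibitory and activating receptors sets how a myeloid cell answers an immune complex. Tyrobp, also called DAP12, is an ITAM adaptor for other receptors such as Trem2. In tumours these genes are known mainly from macrophages and monocytes, and T cells are not known as their main source.

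The motifs that separate activating from inhibitory members are short, and are shown as coding sequence, 5′ to 3′, of the GENCODE M21 transcripts on GRCm38. Capitals mark the tyrosine codons, 2 in each ITAM and 1 in the ITIM. The stretches are coding bases 193 to 237 of Fcer1g, 274 to 318 of Tyrobp and 949 to 966 of Fcgr2b, counted from the first base of the start codon.
Fcer1g ITAM: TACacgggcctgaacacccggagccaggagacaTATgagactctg
Tyrobp ITAM: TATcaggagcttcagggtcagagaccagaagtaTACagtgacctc
Fcgr2b ITIM: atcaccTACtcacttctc

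A second stretch bears on how far reads of Fcgr2b and Fcgr3 can be told apart. Outside the cell, the inhibitory and the activating receptor are close in sequence: their coding sequences align over 509 bases at 96.5% identity, and the longest exact match runs over 129 bases, coding bases 278 to 406 of Fcgr2b and 263 to 391 of Fcgr3.
shared by Fcgr2b and Fcgr3: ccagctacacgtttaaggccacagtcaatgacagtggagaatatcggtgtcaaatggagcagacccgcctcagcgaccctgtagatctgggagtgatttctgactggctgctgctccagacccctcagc

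Of 50-base windows along the exons, 9.58% of those of Fcgr3 (166 of 1733) were also found in Fcgr2b, and 2.92% of those of Fcgr2b (166 of 5685) in Fcgr3. Fcgr2b shared 6.95% of its windows with any other gene, and no window of Fcgr1, Fcgr4, Fcer1g or Tyrobp was shared. How the counting treated reads from such windows was not given in the sources used here. The windows count exact matches only, so how large a part of the Fcgr2b and Fcgr3 reads is uncertain is not known. Gm38204 overlaps 155 exonic bases of Fcgr2b (2.68%) on the opposite strand, and Smart-Seq2 does not keep the strand.

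Fcgr2b, Fcgr3, Fcgr4 and Fcer1g lie close together on chromosome 1, and Fcgr1 and Tyrobp on other chromosomes. On mm10, Fcgr2b spans chr1:170958617-170976547 and Fcgr3 chr1:171051174-171064935, both on the minus strand, with Fcgr4 between them on the plus strand at chr1:171018920-171029761. Fcer1g lies at chr1:171229572-171234365 on the minus strand. Fcgr1 is at chr3:96282909-96293969 on the minus strand and Tyrobp at chr7:30413760-30417585 on the plus strand.

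The promoters of the receptor genes were searched because these genes varied together across libraries, as described below. The 250 bases upstream of the start sites that RefSeq gives on GRCm38.p6 were searched on both strands; 5 of the 6 members had an entry. The search was for GAGGAA, a form of the motif that PU.1 binds, and for TTCNNNGAA, the palindrome that STAT factors bind. GAGGAA was found once in Fcgr1, Fcgr3 and Fcgr4 and not in Fcgr2b or Fcer1g, against 23.3% of all 32851 promoters (7639). The shorter GGAA was not counted, and it occurs in the promoters of Fcgr2b and Fcer1g. The lack of a GAGGAA match there thus does not show that such a site is absent. TTCNNNGAA was found in Fcgr1 alone, against 7.02% of all promoters (2306). The inhibitory receptor and the activating receptor with matches for both are shown on their own strand, with matches in capitals (TTCCTC is GAGGAA on the other strand); the first is chr1:170976072-170976321 and the second chr3:96293970-96294219. The RefSeq start of Fcgr2b lies inside the GENCODE gene.
Fcgr2b promoter: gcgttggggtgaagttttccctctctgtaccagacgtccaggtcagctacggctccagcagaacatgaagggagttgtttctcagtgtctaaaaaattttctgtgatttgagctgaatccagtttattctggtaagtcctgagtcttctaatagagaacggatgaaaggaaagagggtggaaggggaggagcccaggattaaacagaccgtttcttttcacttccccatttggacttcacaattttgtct
Fcgr1 promoter: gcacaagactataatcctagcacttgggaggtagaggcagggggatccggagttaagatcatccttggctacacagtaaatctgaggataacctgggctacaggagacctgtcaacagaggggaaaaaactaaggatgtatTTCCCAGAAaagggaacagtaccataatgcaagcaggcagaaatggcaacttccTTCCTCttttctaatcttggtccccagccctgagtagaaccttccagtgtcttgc

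The libraries were shallow and the sorts mixed, which touches each result that follows. Values given for CD8+ T cells, CD4+ T cells or dendritic cells are those of the sort of that name, with all the cells it held. Whole reads recovered from the deposited values summed to 11170 to 266392 per library, so that 3 reads, the upper limit that a count of 0 allows at 95% confidence, stood for 11.3 to 269 CPM (reads per 1000000 recovered reads). Limits and intervals on reads cover counting error only, since the reads carry no molecular identifiers. Mitochondrial genes took 2.39% to 71.9% of the reads. Of the CD4+ anti-PD-1 libraries, replicates 1 and 2 had 0 and 1 reads of the T cell gene Cd3e, and 10 T cell markers summed to 2 reads in one and 17 in the other, against 541 in replicate 3; this is the Cd3e-poor pair named below. Without it the log2 changes of the members in that sort had a median of -0.80, with 4 of 6 below 0, and the values of anti-PD-1 replicate 3 are the ones left for comparison. In the dendritic cell sort the dendritic cell genes Zbtb46 and Xcr1 had 0 to 2 reads in each library and Flt3 0 to 13, while Irf8 had 2 to 149 and Itgax 3 to 52. The 12 dendritic cell markers there summed to 7 to 251 reads with D18 and 50 to 94 with anti-PD-1, and 15 monocyte and macrophage markers to 145 to 5459 with D18 and 2655 to 6026 with anti-PD-1. In each sort, anti-PD-1 replicates 1 and 2 had no read of mt-Atp6, mt-Co2 or mt-Co3, whereas the other 12 libraries had 5 to 334. This split, read as a batch from those genes alone, leaves anti-PD-1 replicate 3 as the only anti-PD-1 library of a sort to set beside the 3 D18 libraries.

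RNA of all 6 members was found in all 3 sorts, with the mean levels of the adaptor chains above those of the receptors. Levels per length are given as RPKM, which is CPM per kilobase of exon. In the dendritic cell sort, over the 6 libraries of both groups, the levels were 1877 ± 1327 RPKM for Fcer1g, 1604 ± 937 for Tyrobp, 436 ± 196 for Fcgr3, 398 ± 41.1 for Fcgr4, 169 ± 78.1 for Fcgr1 and 108 ± 59.6 for Fcgr2b (mean ± SD, n = 6). Fcer1g and Tyrobp differed by less than their spread, as did Fcgr3 and Fcgr4, and Fcgr1 and Fcgr2b. The order of the means did not hold in each library. In anti-PD-1 replicate 2 of this sort Fcer1g (355 RPKM) and Tyrobp (290) lay below Fcgr3 (572) and Fcgr4 (412). Both chains also lay below these receptors in D18 replicates 1 and 2 of the CD4+ sort. The place of Fcgr2b depends on the length used: over its shortest principal transcript of 1578 bases instead of 5790 exonic bases its level was 397 RPKM, beside 398 for Fcgr4 and 169 for Fcgr1.

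The T cell sorts held the same genes in the same order of mean levels, and there the lead of each chain over Fcgr3 was smaller than the SD of that chain. In the CD4+ T cell sort the mean level was 1109 ± 901 RPKM for Fcer1g, 813 ± 647 for Tyrobp, 353 ± 147 for Fcgr3, 351 ± 161 for Fcgr4, 184 ± 93.6 for Fcgr1 and 69.9 ± 48.8 for Fcgr2b (SD, n = 6). In the CD8+ T cell sort it was 899 ± 855 RPKM for Fcer1g, 632 ± 569 for Tyrobp, 240.5 ± 195 for Fcgr3, 221 ± 141 for Fcgr4, 104 ± 103 for Fcgr1 and 60.8 ± 52.4 for Fcgr2b (SD, n = 6). Mean levels of each member were lowest in the CD8+ T cell sort, but the SD within a sort was as large as most of these gaps. The tables of the sorts were normalised separately by the authors, so that no test was run on levels between sorts. The spread of each member within a sort reached from near 0 to over 1000 CPM for some, as the plot of CPM by library shows.

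**Figure D1:**
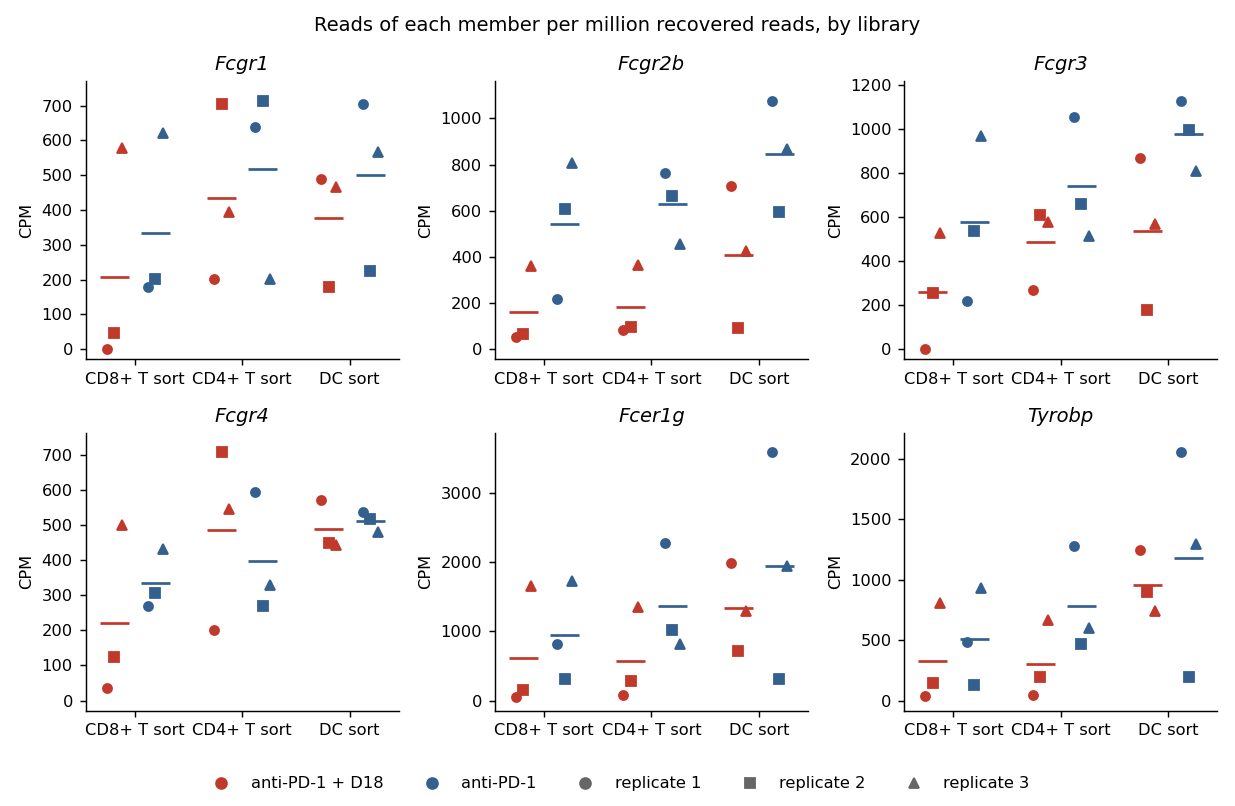
Each panel gives the CPM (linear axis) of 1 gene in all 18 libraries, with D18 (red) left of anti-PD-1 (blue) in each sort; symbols mark the replicate and lines the group mean (n = 3). Of the 6 genes, Fcgr2b has the lowest ratio of the D18 mean to the anti-PD-1 mean in each sort, and in the CD4+ T cell sort its groups do not overlap (highest D18 library 364 CPM, lowest anti-PD-1 library 455 CPM).

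Among the activating receptors, Fcgr1 and Fcgr3 were lower on average with D18 in each sort, but no change passed the test. Changes were tested with limma on log2(normalised reads + 1) for genes averaging at least 10 normalised reads, which all 6 members reached in each sort, with Benjamini-Hochberg adjustment at 0.05. No gene at all was called in any sort: 0 of 1569 genes (0%) in the CD8+ sort, 0 of 966 (0%) in the CD4+ sort and 0 of 886 (0%) in dendritic cells, and 130, 100 and 61 genes had an unadjusted p under 0.05. Of the members, 1 of 6 was lower at an unadjusted p under 0.05 in the CD8+ sort, against 5.1% of tested genes, 3 of 6 in the CD4+ sort, against 6.63%, and 0 of 6 in the dendritic cell sort, against 4.74%. The count-based variant limma-voom also called 0 genes in each sort, with 176, 99 and 128 at an unadjusted p under 0.05.

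Fcgr1, the high-affinity IgG receptor, had 0, 12 and 45 reads in D18 libraries of the CD8+ sort, against 14, 38 and 89 in anti-PD-1 libraries. The CD4+ T cell sort gave 12, 22 and 54 reads with D18 and 97, 103 and 24 with anti-PD-1, and the dendritic cell sort 93, 2 and 79 with D18 and 42, 50 and 97 with anti-PD-1. The groups overlap in all sorts, and the 0 stands in D18 replicate 1 of the CD8+ sort, where it allows up to 53.7 CPM. The log2 changes, D18 minus anti-PD-1, were -2.20 ± 1.46 in the CD8+ sort, -0.83 ± 0.75 in the CD4+ sort and -0.81 ± 0.77 in dendritic cells (SE; limma adjusted p = 0.680, 0.700 and 0.636). With batch as a term the CD4+ value was 0.81 ± 0.80; the only anti-PD-1 library in the batch of the D18 libraries, replicate 3, was the lowest of its group.

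Fcgr3, the low-affinity activating receptor whose outer part resembles Fcgr2b, had 0, 68 and 41 reads with D18 in the CD8+ sort, against 17, 102 and 139 with anti-PD-1. The CD4+ sort gave 16, 19 and 79 reads with D18 and 160, 95 and 61 with anti-PD-1, and the dendritic cell sort 165, 2 and 96 with D18 and 67, 221 and 138 with anti-PD-1. The groups again overlap throughout after normalisation. Its log2 changes were -2.26 ± 1.47, -1.22 ± 0.58 and -1.54 ± 0.96 in the CD8+, CD4+ and dendritic cell sorts (SE; limma adjusted p = 0.676, 0.478 and 0.551). The batch term left -0.25 ± 0.73 of the CD4+ change.

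Fcgr4, an activating receptor for IgG2 antibodies, was the receptor with the smallest log2 change between groups in each sort. It had 2, 33 and 39 reads with D18 and 21, 58 and 62 with anti-PD-1 in the CD8+ sort, 12, 22 and 75 with D18 and 90, 39 and 39 with anti-PD-1 in the CD4+ sort, and 109, 5 and 75 with D18 and 32, 115 and 82 with anti-PD-1 in dendritic cells. In the dendritic cell sort its level was 487 ± 73.0 CPM with D18 and 512 ± 29.7 CPM with anti-PD-1, and in normalised reads 39.7 ± 17.8 with D18 and 64.7 ± 49.1 with anti-PD-1 (SD, n = 3 each). In the CD4+ sort the scales differed in direction. Its level there was 485 ± 258 CPM with D18 and 397 ± 172 CPM with anti-PD-1. In normalised reads it was 33.8 ± 14.7 with D18 and 44.4 ± 18.8 with anti-PD-1 (SD, n = 3 each). The log2 changes were -1.31 ± 0.90 in the CD8+ sort, -0.40 ± 0.59 in the CD4+ sort and -0.54 ± 0.77 in dendritic cells (SE; limma adjusted p = 0.680, 0.857 and 0.757), and 0.29 ± 0.80 in the CD4+ sort with the batch term.

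The inhibitory receptor Fcgr2b was lower with D18 on average in each sort, most evenly in the CD4+ T cell sort. There it had 5, 3 and 50 reads with D18, against 116, 96 and 54 with anti-PD-1. In normalised reads the groups did not overlap, 13.8 ± 13.0 with D18 and 75.7 ± 38.2 with anti-PD-1 (SD, n = 3 each), which 1 of 6 members showed, against 9.21% of tested genes in that direction. In the CD8+ sort and in the dendritic cell sort 0 of 6 members were separated in this way, against 7.65% and 19.9% of tested genes. The log2 change was -2.57 ± 0.71, ranking 7 of 966 genes by p (limma unadjusted p = 0.00467), and it did not pass after adjustment (limma adjusted p = 0.453). Within the batch, all 3 D18 libraries stayed below anti-PD-1 replicate 3, which was so for 1 of 6 members, against 23.6% of tested genes. In the CD8+ sort all 3 D18 libraries lay below anti-PD-1 replicate 3 for 5 of 6 members, against 29.6% of tested genes, and in the dendritic cell sort 0 of 6, against 32.4%. The CD4+ change of Fcgr2b was -1.63 ± 0.95 with the batch term. Leaving out the Cd3e-poor pair is the same comparison, since that pair makes up the other batch of this sort, and it gave the same value.

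In the CD8+ T cell sort Fcgr2b had 3, 18 and 28 reads with D18 and 17, 115 and 116 with anti-PD-1. The groups overlap only through anti-PD-1 replicate 1. The log2 change was -2.09 ± 0.89 (SE; limma unadjusted p = 0.0480, adjusted p = 0.599), and -3.10 ± 1.23 with the batch term. No label pairs the libraries, but deviations from the group means correlated at 0.36 to 0.56 in same-numbered libraries of this sort. The pairing was thus read from the values that are tested, so the blocked fit is not independent support. With the replicate numbers as a block Fcgr2b fell (limma adjusted p = 0.0409), 1 of 6 members. This stands against 1.27% of tested genes called in either direction (20 of 1569) and 0.701% called lower (11). Pairs 1 and 2 lie across the batch split, so that treatment and batch cannot be told apart in them. The other members had adjusted p between 0.204 and 0.391 in the blocked fit. At an unadjusted p under 0.05, 4 of 6 members (the receptors) were lower in that fit, against 11.3% of tested genes. Fcgr1, Fcgr2b, Fcgr3 and Fcer1g, 4 of 6 members, were lower with D18 in all 3 same-numbered pairs, against 23.9% of tested genes.

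In the dendritic cell sort Fcgr2b had 135, 1 and 72 reads with D18, against 64, 132 and 148 with anti-PD-1. The groups overlap, and the lowest library is D18 replicate 2, which held 11170 reads in all. Its log2 change of -1.83 ± 0.99 (SE; limma adjusted p = 0.551) was the lowest of the 6 members, but in this sort the median of all tested genes was itself -0.65, with 69.1% of genes below 0. Without D18 replicate 2 the median of all genes was 0.03 and that of the members -0.18, with 4 of 6 members below 0.

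Both adaptor chains were lower on average with D18 in the CD4+ T cell sort, by similar amounts, and passed no adjusted test. Fcer1g, the partner of the activating receptors, had 5, 9 and 185 reads there with D18 and 344, 146 and 97 with anti-PD-1. Tyrobp had 3, 6 and 92 reads with D18 and 194, 67 and 71 with anti-PD-1. D18 replicates 1 and 2 were far below all other libraries of that sort, while D18 replicate 3 lay among the anti-PD-1 libraries. The log2 changes were -2.47 ± 0.96 for Fcer1g and -2.39 ± 0.85 for Tyrobp (SE; limma unadjusted p = 0.0320 and 0.0195, both adjusted p = 0.453), and with the batch term -1.36 ± 1.25 for Fcer1g and -1.64 ± 1.18 for Tyrobp. Together with Fcgr2b these are the 3 members at an unadjusted p under 0.05 in that sort.

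That result depends on the libraries numbered 3 and on the filter for low values. When both were left out of the CD4+ T cell sort, 3 of 6 members passed the adjusted test, against 3.59% of tested genes (35 of 976). Fcgr2b, Fcer1g and Tyrobp then fell, with log2 changes of -3.71, -4.08 and -3.69 (limma adjusted p = 0.0225, 0.0144 and 0.0287). With all 6 libraries and no filter on low values, the same 3 of 6 members passed (limma adjusted p = 0.0256, 0.00788 and 0.0371), against 0.201% of tested genes (29 of 14441). The comparison without the libraries numbered 3 is of D18 replicates 1 and 2 with the Cd3e-poor anti-PD-1 pair, and it lies across the batch split, so that treatment and batch cannot be told apart in it. Without the Cd3e-poor pair instead, no member passed and 4 of 6 were lower with D18.

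In the other sorts the chains overlapped between groups. Fcer1g had 3, 40 and 129 reads with D18 and 64, 60 and 247 with anti-PD-1 in the CD8+ sort, and 379, 8 and 220 with D18 and 213, 69 and 333 with anti-PD-1 in dendritic cells. Tyrobp had 2, 39 and 63 reads with D18 and 38, 24 and 133 with anti-PD-1 in the CD8+ sort, and 237, 10 and 125 with D18 and 122, 43 and 222 with anti-PD-1 in dendritic cells. In the CD8+ sort the log2 changes were -1.69 ± 1.30 for Fcer1g and -1.24 ± 1.21 for Tyrobp (SE; limma adjusted p = 0.715 and 0.736). In dendritic cells they were -0.54 ± 0.85 and -0.24 ± 0.74 (SE; limma adjusted p = 0.776 and 0.887).

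Set side by side, all 6 members had a log2 change below 0 in each sort on normalised reads. The part of all tested genes below 0 was 51.7% in the CD8+ sort, 48.4% in the CD4+ sort and 69.1% in the dendritic cell sort. In CPM the mean of Fcgr4 in the CD4+ sort was higher with D18, so its direction there depends on the scale. The members' median was -1.89 in the CD8+ sort, -1.81 in the CD4+ sort and -0.67 in dendritic cells, beside medians over all tested genes of -0.03, 0.03 and -0.65. In the CD8+ sort the median rests largely on D18 replicate 1, which had 10 member reads in all, and was -0.56 without it. The members vary together across libraries, so these counts are not independent. Whether the D18 changes of the members differ between sorts was tested as limma contrasts over all libraries: the differences lay between -2.15 and 1.15 on the log2 scale, with adjusted p from 0.750 to 0.995. No gene was called in those contrasts, of 816, 744 and 916 tested, with 7, 22 and 6 at an unadjusted p under 0.05.

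**Figure D2:**
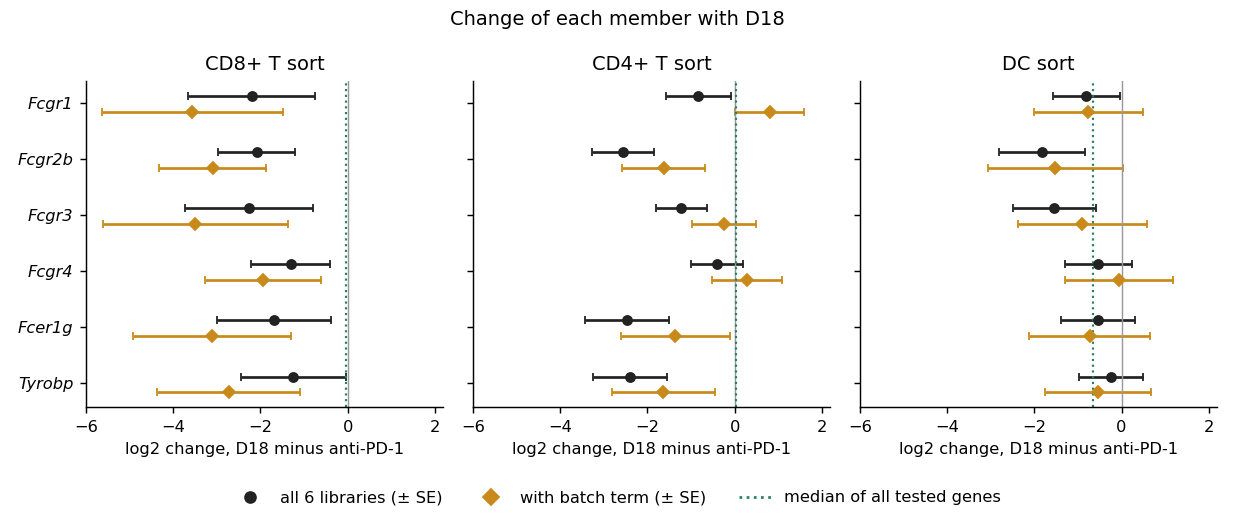
Points give the log2 change, D18 minus anti-PD-1, of each member in the 3 sorts with its SE, from all 6 libraries of a sort (black) and with batch as a term (amber); the dotted line is the median of all tested genes. For the CD4+ sort, Fcgr1 and Fcgr4 move across 0 with the batch term (0.81 and 0.29), and Fcgr2b, Fcer1g and Tyrobp are at -1.63, -1.36 and -1.64; in dendritic cells the black points scatter around the dotted line at -0.65.

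The inhibitory share of the receptor RNA was lower in most D18 libraries. The share is that of Fcgr2b in all reads of Fcgr1, Fcgr2b, Fcgr3 and Fcgr4 of a library; as a ratio within a library it does not scale with the depth of the library, which sets its precision. It is given as a description without a test, since it is a score over members chosen with results known.

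In the CD4+ T cell sort Fcgr2b made up 11.1% (5 of 45 reads), 4.55% (3 of 66) and 19.4% (50 of 258) of receptor reads with D18, against 25.1% (116 of 463), 28.8% (96 of 333) and 30.3% (54 of 178) with anti-PD-1. The groups did not overlap, and the means were 11.7% ± 7.43 with D18 and 28.1% ± 2.72 with anti-PD-1 (SD, n = 3 each). The exact 95% binomial intervals of D18 replicate 2 (0.947% to 12.7%) and of anti-PD-1 replicate 1 (21.2% to 29.3%) do not touch, while those of D18 replicate 3 (14.7% to 24.7%) and anti-PD-1 replicate 3 (23.7% to 37.7%) do.

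In the CD8+ T cell sort the share was 60.0% (3 of 5 reads), 13.7% (18 of 131) and 18.3% (28 of 153) with D18, and 24.6% (17 of 69), 36.7% (115 of 313) and 28.6% (116 of 406) with anti-PD-1. The first D18 library rests on 5 reads and its interval runs from 14.7% to 94.7%; with it the group means were 30.7% ± 25.5 for D18 and 30.0% ± 6.17 for anti-PD-1 (SD, n = 3 each), a difference of 0.697 percentage points, and without it the difference was -14.0. Over the summed reads of a group the share was 17.0% with D18 (49 of 289) and 31.5% with anti-PD-1 (248 of 788).

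In the dendritic cell sort the share was 26.9% (135 of 502 reads), 10.0% (1 of 10) and 22.4% (72 of 322) with D18, and 31.2% (64 of 205), 25.5% (132 of 518) and 31.8% (148 of 465) with anti-PD-1. The groups overlap through D18 replicate 1 and anti-PD-1 replicate 2, and the means were 19.8% ± 8.74 with D18 and 29.5% ± 3.50 with anti-PD-1 (SD, n = 3 each). The difference was -9.76 percentage points, and -4.88 without D18 replicate 2, whose share rests on 10 reads. Counted over sorts, 7 of 9 D18 libraries lay below the lowest anti-PD-1 library of their own sort, and 8 of 9 below anti-PD-1 replicate 3 of their sort, the library of the same batch. The anti-PD-1 libraries kept to a narrow band, 24.6% to 36.7% (median 28.8%, n = 9), and the D18 libraries ran from 4.55% to 60.0% (median 18.3%, n = 9).

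**Figure D3:**
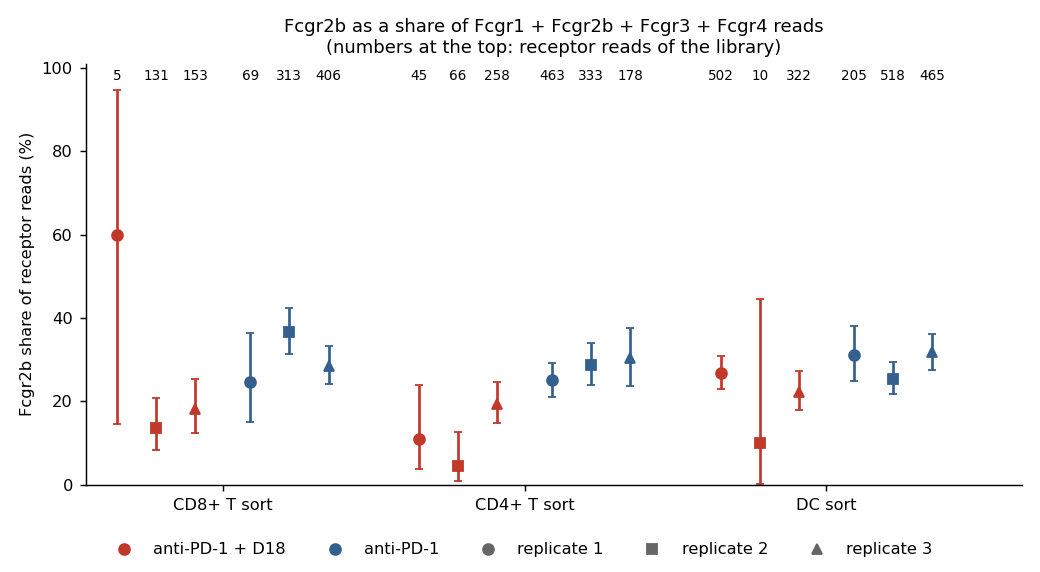
The share of Fcgr2b in the reads of the 4 Fc gamma receptors (linear axis, percent) is drawn for each library with its exact 95% binomial interval, D18 (red) left of anti-PD-1 (blue), with the receptor reads of the library at the top. The 9 anti-PD-1 libraries sit between 24.6% and 36.7%; the D18 libraries of the CD4+ T cell sort all lie lower, and the highest point, 60.0%, rests on 5 reads.

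The mean share of Fcgr4 was higher with D18 in all 3 sorts. Within the CD4+ sort it made up 29.7% ± 3.38 of receptor reads with D18 and 17.7% ± 5.32 with anti-PD-1, without overlap (SD, n = 3 each). In the CD8+ sort its share was 30.2% ± 8.46 with D18 and 21.4% ± 7.98 with anti-PD-1, and in dendritic cells 31.7% ± 15.9 with D18 and 18.5% ± 3.38 with anti-PD-1, with overlap in both sorts. In D18 replicate 2 of the dendritic cell sort it rests on 5 of 10 reads, and without that library the difference between groups was 4.02 percentage points in place of 13.2. The CD8+ difference was 3.93 without D18 replicate 1, in place of 8.81, and in the CD4+ sort anti-PD-1 replicate 3 stood at 21.9%. The share of Fcgr1 was 27.0% ± 6.21 with D18 and 21.8% ± 8.75 with anti-PD-1 in the CD4+ sort, 12.9% ± 15.1 with D18 and 18.1% ± 5.24 with anti-PD-1 in the CD8+ sort, and 21.0% ± 3.13 with D18 and 17.0% ± 6.37 with anti-PD-1 in dendritic cells (SD, n = 3 each), with overlap in each. The share of Fcgr3 in the CD4+ sort, 31.7% ± 3.50 with D18 and 32.5% ± 3.40 with anti-PD-1, differed by less than its spread. Against Fcgr3 alone, Fcgr2b made up 25.4% ± 12.6 of the reads of that pair with D18 in the CD4+ sort and 46.4% ± 4.14 with anti-PD-1 (SD, n = 3 each).

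The chains followed each other closely, more than they followed the receptors. Fcer1g made up 44.4% to 71.4% of the reads of the chain pair in the 18 libraries (median 62.6%), and both chains had reads in each library. On log2(CPM + 10), Fcer1g and Tyrobp had a Pearson correlation of 0.97 over the 18 libraries, which share sort, depth and batch; the 14 other pairs of members had 0.60 (Fcgr2b and Fcgr4) to 0.90 (Fcgr1 and Fcgr4). Within single sorts Fcgr1 and Fcgr4 had 0.99 in the CD8+, 0.59 in the CD4+ and 0.37 in the dendritic cell sort. Fcer1g and Tyrobp had 0.98, 0.99 and 0.94 there. Chain reads per receptor read spread more widely, over 0.178 to 1.80, and were lowest in D18 replicate 1 of the CD4+ sort. The ratio was 0.493 ± 0.504 with D18 and 0.915 ± 0.262 with anti-PD-1 in the CD4+ sort, with overlap, and in dendritic cells 1.37 ± 0.384 with D18 and 1.01 ± 0.726 with anti-PD-1 (SD, n = 3 each).

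Macrophage markers moved with the members. Of the monocyte and macrophage markers tested, 13 of 14 in the CD8+ sort, 14 of 14 in the CD4+ sort and 12 of 13 in the dendritic cell sort had a log2 change below 0, with medians of -2.39, -1.53 and -1.31, and none passed the limma test. Among all tested genes 51.7%, 48.4% and 69.1% were below 0. With the batch term 14 of 14, 12 of 14 and 11 of 13 markers were below 0, with medians of -3.12, -0.50 and -1.09. The 15 markers summed to 1505 to 22823 CPM with D18 and 22239 to 36253 CPM with anti-PD-1 in the CD8+ sort, 7176 to 25806 CPM with D18 and 18639 to 42581 CPM with anti-PD-1 in the CD4+ sort, and 12981 to 28635 CPM with D18 and 18435 to 44638 CPM with anti-PD-1 in dendritic cells. Without the Cd3e-poor pair, the CD4+ sums were 19028 CPM on average with D18 and 18639 CPM in anti-PD-1 replicate 3. Csf1r and Adgre1 were at 0 in D18 replicate 1 of the CD8+ sort, and Mrc1, with at most 7 reads in any library, was at 0 in several. The summed members and the summed markers had a correlation of 0.95 over the 18 libraries on log2(CPM + 10). The markers' part in the members' changes was not tested, and in bulk RNA fewer cells of a type and less RNA per cell cannot be told apart.

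Per 1000 macrophage marker reads, a view added after the values were seen, the summed members overlapped between groups in each sort. They came to 180.0 ± 55.4 with D18 and 108 ± 37.9 with anti-PD-1 in the CD8+ sort, 129 ± 30.7 with D18 and 155 ± 1.67 with anti-PD-1 in the CD4+ sort, and 184 ± 26.1 with D18 and 175 ± 25.4 with anti-PD-1 in dendritic cells (SD, n = 3 each). The marker Apoe gave an uneven part of the marker reads. In the CD8+ sort it was 1391 of 2157 in anti-PD-1 replicate 1 and 38 of 924 in D18 replicate 2. In the CD4+ sort it was 3729 of 6459 in anti-PD-1 replicate 1 and 668 of 3309 in D18 replicate 3. How far differences per 1000 marker reads rest on Apoe was not tested. With Apoe counted, Fcgr4 was higher with D18 without overlap in the CD8+ sort, as were 21.5% of tested genes. Its values there were 27.1 ± 7.48 with D18 and 11.8 ± 2.01 with anti-PD-1. Fcgr4 was higher without overlap in the CD4+ sort too, 26.0 ± 2.95 with D18 and 14.2 ± 3.35 with anti-PD-1, as were 11.1% of tested genes. Whether these Fcgr4 groups stay apart without Apoe among the markers was not tested. Fcgr2b was lower with D18 without overlap in the CD4+ sort, 10.2 ± 5.84 with D18 and 23.1 ± 4.62 with anti-PD-1, against 2.07% of tested genes in that direction. For the CD8+ sort its values were 35.7, 19.5 and 15.7 with D18, the first from 3 of its reads over 84 marker reads, and 7.88, 27.3 and 22.3 with anti-PD-1. The groups overlap there, and the D18 mean was 23.6 ± 10.6 with all 3 libraries and 17.6 without the first, beside 19.1 ± 10.1 with anti-PD-1. They overlap also in dendritic cells (16.1 ± 8.93 with D18 and 27.0 ± 4.54 with anti-PD-1).

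**Figure D4:**
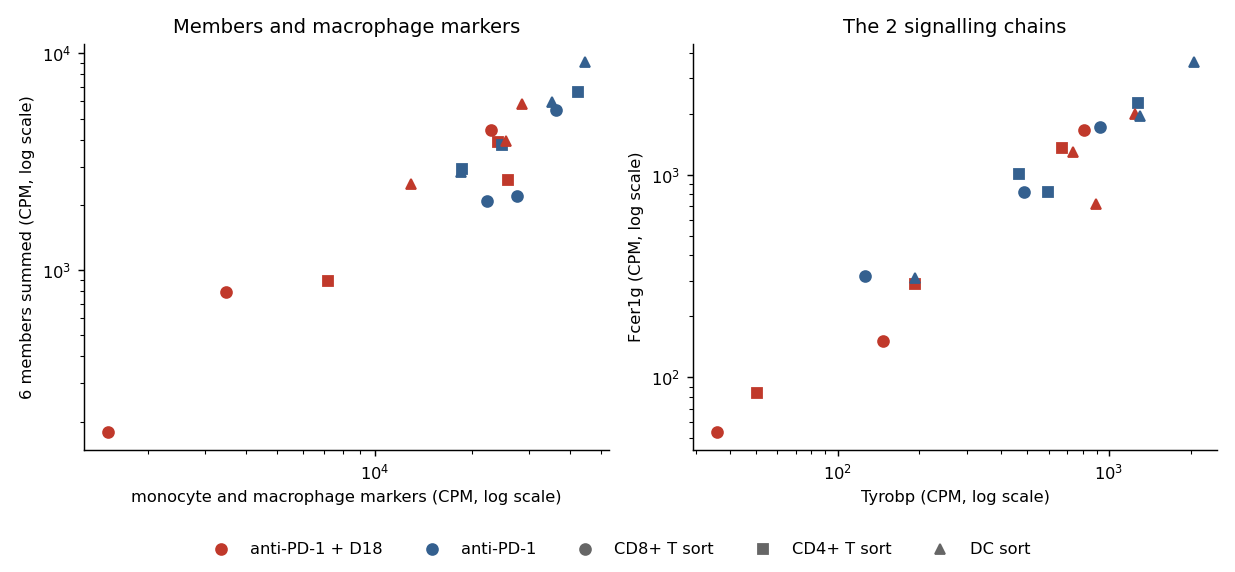
Left, the summed CPM of the 6 members against that of the 15 monocyte and macrophage markers; right, Fcer1g against Tyrobp; each point is 1 of 18 libraries, all axes are log scales, D18 is red and anti-PD-1 blue, and symbols mark the sort. The members rise with the markers (correlation 0.95 on log2(CPM + 10)), with D18 replicate 1 of the CD8+ sort lowest at 179 CPM of members, and the chains lie along a line (0.97).

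Markers of other cell types were present at lower and uneven levels. The 10 NK cell markers, some of which CD8+ T cells also use, summed to 49 to 682 reads with D18 and 43 to 381 with anti-PD-1 in the CD8+ sort, 0 to 102 with D18 and 3 to 62 with anti-PD-1 in the CD4+ sort, and 0 to 120 with D18 and 4 to 81 with anti-PD-1 in dendritic cells. Ncr1 was at 0 in each library. In D18 replicates 1 and 2 of the CD8+ sort they came to 1415 and 2560 CPM, beside 1505 and 3469 CPM of macrophage markers. The 8 B cell markers, of interest because B cells also use Fcgr2b, summed to 4 to 27 reads with D18 and 11 to 52 with anti-PD-1 in the CD8+ sort, 3 to 72 with D18 and 6 to 37 with anti-PD-1 in the CD4+ sort, and 1 to 170 with D18 and 5 to 15 with anti-PD-1 in dendritic cells, while Ms4a1 had at most 3. The 7 neutrophil markers summed to at most 17 reads, in D18 replicate 2 of the dendritic cell sort, where they came to 1522 CPM. All 6 mast cell and basophil markers, whose cells also use Fcer1g and Fcgr3, were at 0 in the T cell sorts and had at most 2 reads in a dendritic cell library. The part of these markers in the members' values was not tested.

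The genes around the receptors were detected unevenly, and none passed the limma test in any sort. Of 21 other receptors that pair with Fcer1g or Tyrobp, 3 were tested in the CD8+ sort (1 lower, 2 higher with D18), 1 in the CD4+ sort (lower) and 5 in dendritic cells (4 lower, 1 higher). Trem2, a lipid receptor of macrophages that signals through Tyrobp, had 0, 0 and 12 reads with D18 and 11, 31 and 35 with anti-PD-1 in the CD8+ sort (log2 change -2.96 ± 1.39, adjusted p = 0.617). In dendritic cells it had 68, 1 and 54 reads with D18 and 26, 27 and 44 with anti-PD-1 (-0.55 ± 0.80), and in the CD4+ sort its change was -0.13 ± 0.51. Clec4d, a C-type lectin receptor that uses Fcer1g, was the member of that list above 0 in dendritic cells, with 70, 3 and 25 reads with D18 and 3, 42 and 9 with anti-PD-1 (0.99 ± 0.99).

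The kinases and adaptors of ITAM signalling gave 5 tested genes of 24 in the CD8+ sort (3 lower, median -0.41), 3 in the CD4+ sort (1 lower, median 1.02) and 2 in dendritic cells (both lower, median -1.92). Lyn, a Src-family kinase, had 14, 0 and 10 reads with D18 and 20, 33 and 23 with anti-PD-1 in dendritic cells (log2 change -2.52 ± 1.11, limma adjusted p = 0.551). Lat, the T cell adaptor in the same list, had 22, 18 and 27 reads with D18 in the CD4+ sort and 1, 1 and 38 with anti-PD-1 (2.54 ± 1.02, adjusted p = 0.453), the low anti-PD-1 libraries being the Cd3e-poor pair. With the batch term 1 of the 3 genes tested there was below 0, with a median of 0.04. The related chains Cd3d, Cd3e and Cd3g, which carry ITAMs in the T cell receptor, were likewise above 0 in that sort, 3 of 3 with a median of 2.66, and were -0.15, -0.25 and -0.57 with the batch term.

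The list of inhibitory phosphatases and adaptors also counts the receptor Sirpa. Of its tested genes, 4 of 5 were lower with D18 in the CD8+ sort, 4 of 4 in the CD4+ sort and 3 of 3 in dendritic cells. Their medians were -0.22, -0.56 and -0.88. Among all tested genes 51.7%, 48.4% and 69.1% were lower. With the batch term 4 of 5, 2 of 4 and 3 of 3 were below 0, with medians of -1.27, -0.19 and -0.75. Ptpn6, the phosphatase SHP-1, had 0, 66 and 10 reads with D18 and 43, 122 and 47 with anti-PD-1 in the CD8+ sort (-2.93 ± 1.11, adjusted p = 0.573). Inpp5d, the lipid phosphatase SHIP-1 that Fcgr2b recruits, had a log2 change of -0.01 ± 0.51 in the CD8+ sort, -0.50 ± 0.50 in the CD4+ sort and -0.88 ± 0.63 in dendritic cells. Sirpa, an inhibitory receptor of phagocytes, had -1.94 ± 1.25, -1.74 ± 0.83 and -0.83 ± 0.57 in the CD8+, CD4+ and dendritic cell sorts (SE). In dendritic cells both stand beside the median of all genes, -0.65.

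The phagocyte oxidase and phagocytosis list was the best detected, 14 of 17 genes tested in the CD8+ sort and 13 in each other sort, of which 10, 12 and 13 were lower with D18, with medians of -0.39, -0.23 and -0.84. Among all tested genes 51.7%, 48.4% and 69.1% were lower. With the batch term 13 of 14, 7 of 13 and 13 of 13 genes of the list were below 0. Its members of highest level, which all leukocytes use, include Arpc1b, a subunit of the actin-branching Arp2/3 complex, whose log2 changes were 0.00 ± 0.41, -0.29 ± 0.48 and -0.13 ± 0.68 in the CD8+, CD4+ and dendritic cell sorts. Of 12 other Fc receptors and relatives none was tested in the T cell sorts and 1 in dendritic cells. That gene, Fcrls, an Fc receptor-like gene of macrophages, had 0, 0 and 4 reads with D18 and 34, 8 and 40 with anti-PD-1 (-3.74 ± 1.43, unadjusted p = 0.0286, limma adjusted p = 0.551).

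The genes most like the members across libraries were lysosomal and macrophage genes. By Pearson correlation of log2(CPM + 10) with the mean of the 6 members over 18 libraries, among 1517 other genes, the highest were the protease genes Ctss (0.96) and Ctsz (0.95), then Ms4a7 (0.93), Ctsh (0.93), the complement genes C1qc (0.92) and C1qb (0.92), Pld4 (0.91), Cxcl16 (0.91), Ctsl (0.90) and the macrophage growth factor receptor gene Csf1r (0.90). Fcgr2b was closest to Milr1 (0.94), Ifi30 (0.91) and Clec4a3 (0.89), and Fcgr3 to Cd68, Plbd1 and Ctsh. None of these genes was among the top 3 of another member. Fcgr1 was closest to C1qb, Ctss and Fcgr4, and Fcgr4 to Ctss, Fcgr1 and Ctsl. Fcer1g and Tyrobp named each other first, then Fth1 and Cst3. Within the dendritic cell sort alone, the 10 genes closest to the members' mean ran from 0.51 (Ctsl) to 0.96 (Ms4a7), with Csf1r at 0.66. These are descriptions over libraries that share sort, treatment, depth and batch.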

How the data were processed

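The authors deposited 1 table per sort, with 6 libraries each, as log2 values; these behave as reads over library size factors after a variance-stabilising transform, which the labels do not name. The submitters' processing notes list mm10, STAR 2.4.0, HTSeq 0.6.1 and DESeq2, the last with a version not given in the sources used here. Undoing the transform gave whole reads for 100% of values within a tolerance of 0.001, and symbols were found for 98.9% of gene IDs.

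Normalised reads are these reads divided by the size factor. limma 3.58.1 (R 4.3.3; trend and robust settings) tested log2(normalised reads + 1) within a sort for genes averaging at least 10, adjusted over all of them by Benjamini-Hochberg. It was run on simulated reads with large changes and no batch effect. That run does not show its power at the changes and spread seen here. Alternatives were quantile normalisation, limma-voom, the deposited log2 values, pseudocounts of 0.1 and 10, no filter or a higher one (100), a batch term, the replicate block, 1 fit of all libraries, and omitted libraries. No label pairs the libraries. In the CD8+ sort replicate numbers were read as pairs, since deviations from group means correlated at 0.36, 0.51 and 0.56 in same-numbered libraries.

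The rule for named genes takes all members, the 10 genes most like their mean, the 3 most like each, and up to 4 genes of highest level per list; at least 1 gene that this rule names is not reported here. Members and lists were chosen with earlier results of these data known; the batch split, the marker genes named and the scaling to macrophage reads, the values without single libraries on that scale and for Fcgr4 shares, and the batch term for gene lists were chosen after values were seen. Python 3.11.15, pandas 2.3.3, scipy 1.17.1 and matplotlib 3.10.9 made tables and figures. Sequences come from GENCODE M21 and RefSeq.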

Additional observations from a re-analysis of the deposited data

How the results depend on the processing

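The count of genes called in CD8+ T cells was 0, and 22 with no filter, 20 with the replicate block, 1 on the deposited log2 values, 1 in a fit of all 18 libraries, and 0 to 3 with a replicate left out. In CD4+ T cells it was 0, 29 with no filter, 35 without both libraries numbered 3, and 0 to 20 with a replicate left out, the 20 without anti-PD-1 replicate 3. In dendritic cells it was 0, and 1 without both libraries numbered 3. With a mean of at least 100 no member was tested in CD8+ T cells and 1 in each other sort.

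Of the members' alternatives, 95 of 96 in the CD8+ sort, 92 of 103 in the CD4+ sort and 95 of 103 in the dendritic cell sort kept direction and side of the threshold. These alternatives are not independent. The replicate block, the fit without a filter and the fit of all 18 libraries keep the log2 change of the main fit. In the CD4+ sort the batch term and the fit without the Cd3e-poor pair make the same comparison. In the dendritic cell sort leaving out D18 replicate 2 and leaving out libraries under 20000 reads are the same fit. Fcgr2b stayed below 0 in all alternatives, between -3.10 and -1.45 in the CD8+ sort, -3.71 and -1.63 in the CD4+ sort, and -2.62 and -0.78 in the dendritic cell sort. In CD4+ T cells Fcgr1 was 0.81 and Fcgr4 0.29 with the batch term and without the Cd3e-poor pair, and Fcgr4 ran from -0.75 to 0.021 with a replicate left out, the last without D18 replicate 1. In the dendritic cell sort, with a replicate left out, Fcgr4 ran from -0.87 to 0.034 (without anti-PD-1 replicate 2), Fcer1g from -1.10 to 0.098 (without D18 replicate 2, the only library under 20000 reads) and Tyrobp from -0.69 to 0.055 (without anti-PD-1 replicate 1). Tyrobp was also 0.042 without D18 replicate 2, 0.021 with quantile normalisation and 0.038 without both libraries numbered 3. The cause was not tested.

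The difference of the Fcgr2b share in CD8+ T cells was -14.0 percentage points without D18 replicate 1, the only library of that sort under 20 receptor reads, -1.98 without anti-PD-1 replicate 1 and -0.00908 without anti-PD-1 replicate 3, in a range of -14.0 to 9.17 with a replicate left out. In CD4+ T cells it was -6.79 per kilobase of exon, since Fcgr2b has the longest exons. The replicate block called 0 genes in the CD4+ and the dendritic cell sort, where same-numbered pairs correlated at -0.14, 0.15 and -0.20, and at 0.03, -0.09 and 0.14; beyond Fcgr2b in CD8+ T cells it changed no member's call. Depth limits these values most in D18 replicate 1 of CD8+ T cells and D18 replicate 2 of dendritic cells, with 10 and 28 member reads.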
